A study of Mus musculus with 18 samples.

Results

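Tnf and 9 genes of the NF-kB feedback circuit were followed in 18 mouse macrophage libraries: Tnf, Tnfaip3, Nfkbia, Nfkbiz, Nfkb1, Nfkb2, Rel, Relb, Traf1 and Bcl3. They were chosen by the strongly lower Tnf level in T166A skin libraries and by their known place in the circuit. The skin genotype difference of these genes is therefore described without p-values. Counts of members called in skin are given, and nothing is read from them. They are 10 of 26165 genes in the table of bone marrow-derived macrophages and of 26149 genes in the skin table. The mice carried either the T166A form of the nuclear receptor PPARg, in which alanine replaces a threonine, or its wild-type (WT) form. Bone marrow-derived macrophages (BMDM) of C57BL/6J or PPARg T166A mice were grown with M-CSF at 50 ng/ml for 7 days and gave 3 T166A and 3 WT libraries, with replicates 1 and 2 in batch B1 and replicate 3 in batch B2. The skin libraries, 6 T166A and 6 WT, came from dorsal skin at day 6 after injury, where enzyme-digested cells were captured with beads against F4/80. None of the BMDM were described as stimulated, no age was given, and replicates were not stated to be separate animals. The p-values therefore set a genotype difference against the spread between these libraries, which may not be the spread between animals. The RNA extraction text speaks of adipocytes, whereas every label names macrophages.

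NF-kB is a family of paired DNA-binding subunits that inhibitor proteins hold in the cytoplasm until signals from TNF, interleukin 1 or Toll-like receptors lead to the breakdown of the inhibitors. The freed subunits switch on cytokine genes such as Tnf and also genes of their own inhibitors, so that the circuit limits itself. In macrophages Tnf is among the most rapidly induced targets, and its mRNA is kept short-lived by AU-rich elements in its 3′ untranslated region.

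The libraries held 40072513 to 44152639 gene counts in BMDM and 29357354 to 38774475 in skin. Levels are given in CPM (counts per library size, TMM-normalized), and all 10 genes passed the filter on low counts in both sources. Macrophage markers were detected in every library, with Lyz2 (the lysozyme of myeloid cells) at 24672 ± 7066 CPM in T166A and 30124 ± 6675 CPM in WT BMDM (SD, n = 3 each), and at 4279 ± 163 CPM in T166A and 5420 ± 480 CPM in WT skin libraries (SD, n = 6 each). In BMDM 6 of 7 adipocyte markers, among them Adipoq, were at 0 or close to 0 and none passed the filter. In skin, by contrast, summed adipocyte markers spanned 29.9 to 60.3 CPM in T166A and 7.13 to 13.6 CPM in WT libraries, and fibroblast markers 5928 to 11008 CPM in T166A and 7051 to 10882 CPM in WT libraries, so the bead fraction also held RNA of other cells. In BMDM, T166A replicate 3 stood apart, with a chi-square per gene of 364 and 239 against T166A replicates 1 and 2, which differed from each other by 40.3. Fibroblast markers summed to 410 CPM in that library and to 4.24 to 43.9 CPM in the other 5 BMDM libraries.

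In skin the ligand gene Tnf (chromosome 17, 35199367 to 35202007, GRCm38) was at a ratio of 0.523 in T166A to WT libraries, and 7 of the 9 other genes were lower by a smaller step. Tnf encodes the cytokine that gives the TNF pathway its name. It spanned 346 to 432 CPM with a median of 396 CPM in T166A skin libraries, against 710 to 790 CPM with a median of 743 CPM in WT skin libraries. Every T166A library lay below every WT library, and the gap between the groups was wider than either group. The means were 390 ± 32.3 CPM in T166A and 746 ± 29.2 CPM in WT libraries (SD, n = 6 each), a log2 fold change of -0.94 (SE 0.06). Among 2120 genes with a mean of at least 100 CPM in skin, it had the second lowest log2 fold change, after Hcar2.

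The core promoter of Tnf and the AU-rich element of its mRNA are shown as the sequences of the gene with the widest difference. The 250 bases before its start (RefSeq, GRCm38.p6, chr17:35202008-35202257, minus strand) carry a TATA box, TATAAA, at positions -29 to -24, in capitals. A TATAAA on the gene strand before the start was found in 7.59% of 32851 RefSeq promoters. Counted by gene, it was found in 8.94% of 27025 genes and in 2 of the 7 members with a promoter entry, Tnf and Tnfaip3.
Tnf promoter: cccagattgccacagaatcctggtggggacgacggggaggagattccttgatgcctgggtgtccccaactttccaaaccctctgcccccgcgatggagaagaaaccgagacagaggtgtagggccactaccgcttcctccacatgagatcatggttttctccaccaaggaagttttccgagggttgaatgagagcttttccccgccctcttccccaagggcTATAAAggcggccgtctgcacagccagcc
The densest 30 bases of the AU-rich element (GENCODE transcript, GRCm38, chr17:35199679-35199708, minus strand) hold 5 copies of ATTTA, in capitals and in part overlapping.
Tnf AU-rich element: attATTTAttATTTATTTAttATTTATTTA
The whole 3′ untranslated region of Tnf, 764 bases, holds 8 copies of ATTTA and 5 of the longer TTATTTATT. Per gene, in the longest untranslated region of each, Rel (5418 bases), Tnfaip3 (1821 bases) and Nfkbia (512 bases) hold 1 copy of TTATTTATT each, and the other 6 genes hold 0.

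Promoter windows from 250 bases before to 50 bases after the start were in the RefSeq table for 7 of the 10 genes. A match to the NF-kB consensus, searched on both strands, was found in 5 of these 7, against 5.14% of all 27025 genes in the table. They are shown because the genes of the inhibitors and subunits are themselves known NF-kB targets. Each line gives the match nearest to the start with 10 bases on either side, on the gene's strand, with the match in capitals. Rel is an exception, where another match overlaps the one shown and lies slightly nearer to the start. The last base of that other match is not in capitals. The windows of Tnf and Traf1 hold no match, a statement about these letters in this window alone, and a match is a description of sequence, not a bound site.
Tnfaip3, chr10:19015403-19015432, minus strand: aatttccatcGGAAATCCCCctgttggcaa
Nfkbia, chr12:55492657-55492686, minus strand: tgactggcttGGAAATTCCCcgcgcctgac
Nfkb2, chr19:46304716-46304745, plus strand: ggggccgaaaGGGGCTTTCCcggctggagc
Rel, chr11:23771042-23771071, minus strand: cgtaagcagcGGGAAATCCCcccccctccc
Bcl3, chr7:19822734-19822763, minus strand: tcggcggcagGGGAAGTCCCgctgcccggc

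Among the inhibitors, Tnfaip3, which encodes the ubiquitin-editing enzyme A20 that shuts down signalling to NF-kB, spanned 1761 to 2258 CPM (median 1916 CPM) in T166A and 2395 to 2731 CPM (median 2506 CPM) in WT skin libraries. The groups did not overlap, and the log2 fold change was -0.37 (SE 0.06). Nfkbia, which encodes the cytoplasmic inhibitor IkB alpha, spanned 1291 to 1742 CPM (median 1401 CPM) in T166A and 1496 to 1685 CPM (median 1592 CPM) in WT skin libraries. Here T166A replicates 3 and 5 lay above every WT library and the other 4 below all of them, so the T166A group enclosed the WT group. Its log2 fold change was -0.10 (SE 0.07). Nfkbiz, which encodes the nuclear protein IkB zeta that helps NF-kB switch on a subset of its targets, spanned 388 to 523 CPM (median 453 CPM) in T166A and 543 to 585 CPM (median 566 CPM) in WT skin libraries, without overlap. Its log2 fold change was -0.33 (SE 0.06). Bcl3, a nuclear relative of the inhibitors that binds pairs of NF-kB subunits on DNA, spanned 149 to 193 CPM (median 176 CPM) in T166A and 197 to 243 CPM (median 222 CPM) in WT skin libraries. Its groups came close but did not overlap, with a log2 fold change of -0.34 (SE 0.06).

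The 4 subunit genes were lower in T166A skin libraries by closely similar steps. Nfkb1, which encodes the precursor of the subunit of the classical pathway's most common pair, spanned 1105 to 1208 CPM (median 1144 CPM) in T166A and 1390 to 1482 CPM (median 1434 CPM) in WT skin libraries. Its spread of log2 CPM pooled over both genotypes was the smallest of the 10, although Nfkb2 was tighter among WT libraries, and its log2 fold change was -0.32 (SE 0.05). Nfkb2, the corresponding precursor of the alternative pathway, spanned 423 to 467 CPM (median 436 CPM) in T166A and 527 to 560 CPM (median 550 CPM) in WT skin libraries, a log2 fold change of -0.31 (SE 0.05). Rel, which encodes the transactivating subunit c-Rel, spanned 145 to 177 CPM (median 158 CPM) in T166A and 194 to 211 CPM (median 202 CPM) in WT skin libraries, a log2 fold change of -0.35 (SE 0.05). For these 3 genes no T166A library reached a WT library. Relb, which encodes the subunit that pairs with the Nfkb2 product, spanned 125 to 150 CPM (median 127 CPM) in T166A and 146 to 165 CPM (median 157 CPM) in WT skin libraries. A single T166A library, replicate 5, reached into the WT range, and the log2 fold change was -0.24 (SE 0.05).

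Traf1, an adaptor of TNF receptor family members, differed from the rest. It spanned 275 to 306 CPM (median 300 CPM) in T166A and 255 to 324 CPM (median 291 CPM) in WT skin libraries, with the T166A libraries inside the WT range. The log2 fold change was 0.02 (SE 0.05).

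**Figure D1:**
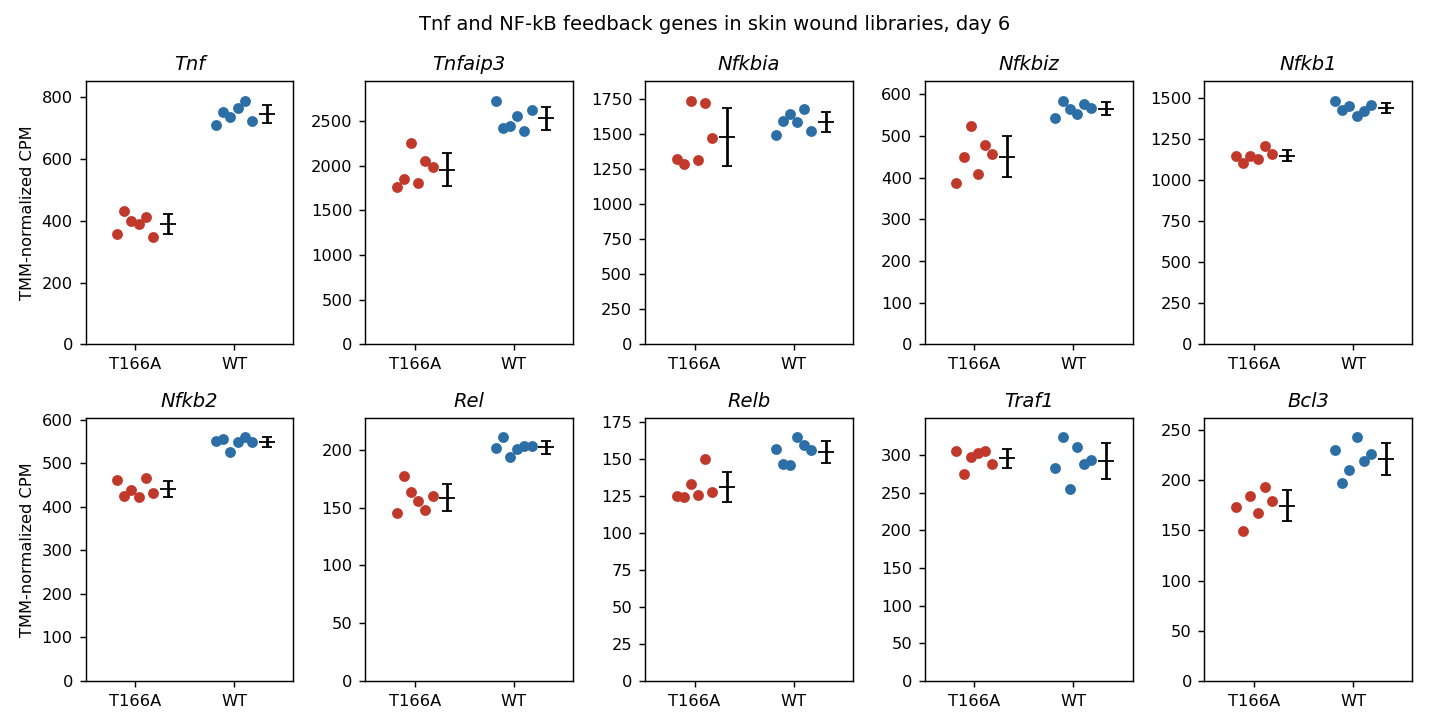
TMM-normalized CPM (vertical axes, from 0, a scale for each gene) of the 10 genes in the 6 T166A (red, left) and 6 WT (blue, right) skin libraries; points are libraries and bars give the mean ± SD. Tnf shows the widest gap, with 346 to 432 CPM in T166A and 710 to 790 CPM in WT libraries, whereas the groups of Nfkbia, Relb and Traf1 overlap.

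In this contrast edgeR called 8 of the 10 genes lower at an adjusted p under 0.05, all but Nfkbia and Traf1, beside 13.2% of all 15473 genes tested, and 7 of the 10 had every T166A library below every WT library, beside 6.63% of genes. These counts follow from the choice of genes and nothing is read from them. Their median log2 fold change was -0.33, beside 0.01 over all genes tested. Over all genes, 1963 were called higher and 2048 lower, a split that became 3357 higher and 1308 lower with library totals in place of TMM scaling, where the median of all genes was 0.1. Under that scaling the same number of members, 8, was called lower and Tnf had a log2 fold change of -0.85.

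The level of macrophage markers moved in the same direction. Summed over 10 macrophage markers, it was 12145 to 13911 CPM in T166A and 14253 to 17231 CPM in WT skin libraries, without overlap, and 7 of the 10 markers were called lower. Means were 13341 ± 654 CPM in T166A and 16111 ± 1103 CPM in WT libraries (SD, n = 6 each), a ratio of 0.828, close to the ratios of 0.772 to 0.846 of the 7 lower members other than Tnf. Tnf itself had a ratio of 0.523. In bulk RNA fewer cells of a type and less RNA per cell cannot be told apart.

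Divided by the summed macrophage markers of its own library, Tnf was at 29.4 ± 3.78 CPM per 1000 marker CPM in T166A and 46.5 ± 4.34 in WT skin libraries (SD, n = 6 each), a ratio of 0.631. On this measure its T166A libraries spanned 25.1 to 35.6 and its WT libraries 41.2 to 52.7, still without overlap. It was the single member of 10 with every T166A library lower, beside 0.969% of genes. Tnfaip3 had 147 ± 13.6 in T166A and 157 ± 6.9 in WT libraries, and Nfkb1 had 86.1 ± 3.49 in T166A and 89.5 ± 5.92 in WT libraries, both with overlap. The ratio was 1.12 for Nfkbia and 1.22 for Traf1, and 0.931 to 1.02 for the 7 remaining genes. Whether the macrophage content accounts for the lower levels was not tested.

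**Figure D2:**
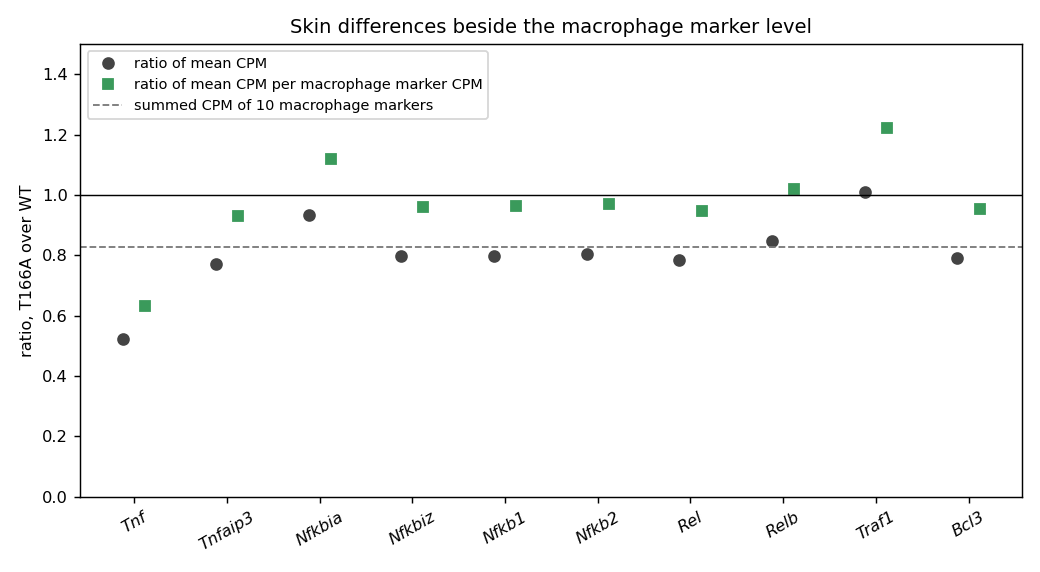
Ratio of T166A to WT means in skin (vertical axis, linear) for each gene, as CPM (dark circles) and as CPM per summed CPM of 10 macrophage markers (green squares). The dashed line is the ratio of the summed markers, 0.828; Tnf stays at 0.631 per marker, whereas 7 genes lie between 0.931 and 1.02.

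With a macrophage marker score as a covariate, 5 members were called lower (2.54% of genes) and the log2 fold change of Tnf was -1.11 (SE 0.09); the others were Nfkbiz, Nfkb1, Nfkb2 and Rel. With an adipocyte score, 2 members were called lower (2.56% of genes), Tnf at -1.06 (SE 0.17) and Tnfaip3 at -0.74 (SE 0.17). The summed markers of both cell types did not overlap between genotypes, so genotype and score are hard to separate in these fits. These counts come from the contrast that chose the genes, and nothing is read from them or from the count per marker CPM. Summed neutrophil markers were at 156 to 258 CPM in T166A and 257 to 299 CPM in WT libraries, with a slight overlap, and with a neutrophil score as a covariate Tnf was at -0.91 (SE 0.07) and Nfkbia at 0.05 (SE 0.07) on the log2 scale. Summed mast cell markers were at 76 to 109 CPM in T166A and 59.4 to 72.7 CPM in WT libraries, a sum led by Kit at 86.6 ± 13.4 CPM in T166A and 52.9 ± 4.46 CPM in WT libraries (SD, n = 6 each). Of the 5 mast cell markers, 1 was called higher and 3 lower, and their part in the result was not tested. Endothelial markers summed to 1025 to 1462 CPM in T166A and 808 to 1096 CPM in WT libraries, with 3 of 5 called higher. Dendritic cell markers, led by Fscn1 at 157 ± 14.4 CPM in T166A and 113 ± 9.34 CPM in WT libraries (SD, n = 6 each), had 3 called higher and 2 lower of 7. Summed markers of monocytes, keratinocytes, fibroblasts, B cells, and T and NK cells overlapped between the genotypes.

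In BMDM, which the choice of genes did not use, no member passed the adjusted threshold by edgeR's quasi-likelihood test, beside 0.0685% of 13139 genes called, nor by DESeq2 or limma-voom. A single member, Tnf, was under an unadjusted p of 0.05 with each of the 3 tools, beside 12.8% of genes by edgeR. With the replicate number as a block, 0 members were under an unadjusted p of 0.05, and Tnf had the same log2 fold change of -0.53 (SE 0.23). Tnf was at 5.9, 5.58 and 8.33 CPM in T166A replicates 1, 2 and 3, against 9.53, 9.97 and 8.71 CPM in WT replicates 1, 2 and 3. Every T166A library lay below every WT library, with replicate 3 of both genotypes nearest to each other. The log2 fold change was -0.53 (SE 0.22, 95% interval -1.04 to -0.02, edgeR adjusted p = 0.374). It was -0.76 in batch B1 and -0.06 between the single libraries of batch B2. Divided by macrophage markers, its groups overlapped, at 0.182 ± 0.0117 CPM per 1000 marker CPM in T166A and 0.238 ± 0.0505 in WT libraries (SD, n = 3 each).

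Traf1 was the other member whose BMDM groups did not overlap, at 16, 17 and 11.1 CPM in T166A and 17.6, 19.1 and 17.9 CPM in WT replicates 1, 2 and 3. The 2 such genes stand beside 6.97% of all genes with every T166A library lower. Its log2 fold change was -0.33 (SE 0.18 and adjusted p = 0.472 by edgeR), with T166A replicate 3 far below the rest, and was -0.16 without that library. Without that library the fit compared the genotypes within batch B1 alone. Tnfaip3 was at 26.3, 28.7 and 12.1 CPM in T166A and 24.9, 26.1 and 18.4 CPM in WT replicates 1, 2 and 3. Its lowest library in each genotype was replicate 3, and the log2 fold change was -0.12 (SE 0.18 and adjusted p = 0.803 by edgeR). Nfkbia was at 72.5, 71.8 and 101 CPM in T166A and 89.6, 86.7 and 110 CPM in WT replicates 1, 2 and 3. In each replicate number the T166A library was the lower one, at -0.23 on the log2 scale (SE 0.12; adjusted p = 0.453 by edgeR).

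Nfkbiz had a log2 fold change of 0.20 in BMDM (95% interval -0.25 to 0.65, edgeR adjusted p = 0.706). The subunit genes lay close to 0, with Nfkb1 at -0.01 (95% interval -0.37 to 0.36), Nfkb2 at 0.04 (-0.31 to 0.39), Rel at 0.09 (-0.25 to 0.43) and Relb at -0.04 (-0.32 to 0.24), and edgeR adjusted p-values from 0.83 to 0.992. Bcl3 was at 39 ± 4.16 CPM in T166A and 38.3 ± 4.06 CPM in WT BMDM (SD, n = 3 each), a log2 fold change of 0.03 (95% interval -0.31 to 0.37, edgeR adjusted p = 0.955). The BMDM intervals of Tnf, Tnfaip3, Nfkbia, Nfkb1, Relb and Traf1 hold the log2 fold changes of these genes in skin, that of Nfkb2 ends at about its skin value, and those of Nfkbiz, Rel and Bcl3 end above theirs. Tnfaip3, Nfkb1, Nfkb2, Rel and Bcl3 had opposite signs in the 2 batches, each positive in B1 and negative in B2. Without T166A replicate 3 the log2 fold change was -0.76 for Tnf, 0.11 for Tnfaip3, 0.18 for Nfkb1 and 0.24 for Nfkb2, and 0 members were called by edgeR, with 1 at an unadjusted p under 0.05. In that fit the batch term takes up the library left in B2, so these fold changes rest on batch B1 alone. Whether the genotype difference of any member differs between skin and BMDM was not tested.

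**Figure D3:**
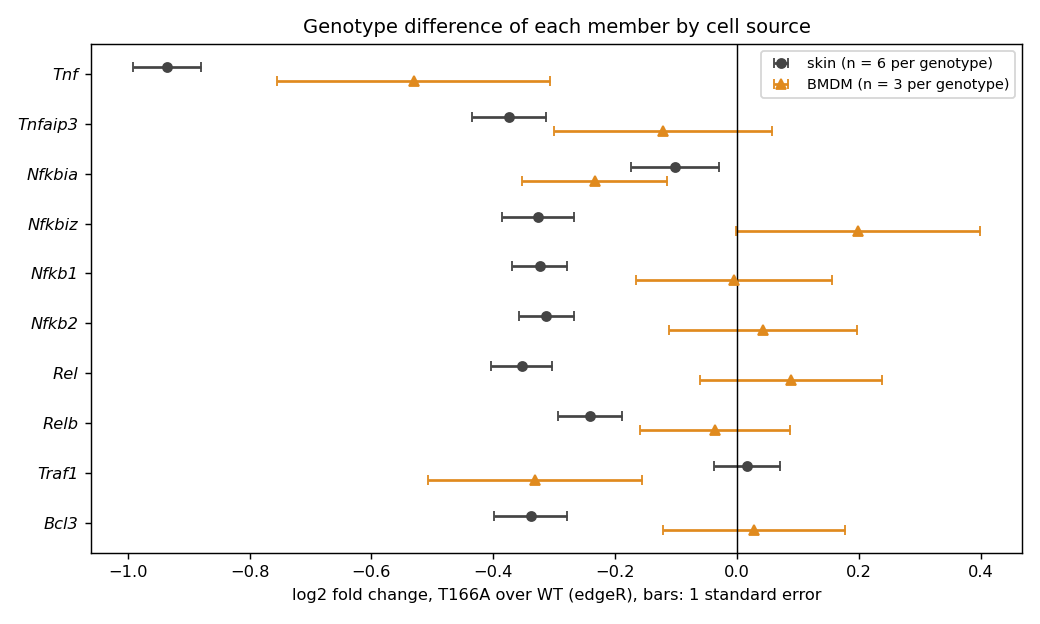
Log2 fold change, T166A over WT (horizontal axis), of the 10 genes in skin (dark circles, n = 6 per genotype) and BMDM (orange triangles, n = 3 per genotype), with bars of 1 standard error from edgeR. Tnf lies furthest left in both sources, at -0.94 in skin and -0.53 in BMDM, and the BMDM values of the subunit genes lie from -0.04 to 0.09.

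The order of the levels, taken per kb of transcript, differed between the sources. In T166A skin libraries Nfkbia was highest at 938 ± 131 CPM per kb, followed by Tnfaip3 at 442 ± 41.9, Nfkb1 at 279 ± 8.44, Tnf at 238 ± 19.7 and Nfkb2 at 141 ± 5.98 CPM per kb (SD, n = 6). In WT skin libraries Nfkbia was at 1007 ± 45.2 and Tnfaip3 at 572 ± 29.4 CPM per kb, and Tnf, at 455 ± 17.8, stood above Nfkb1, at 349 ± 7.89 CPM per kb (SD, n = 6). Tnf and Nfkb1 thus changed places between the genotypes, with no overlap of libraries between these neighbours in either genotype. Traf1, Nfkbiz and Bcl3 followed at 127 to 94.3 CPM per kb in T166A and 137 to 119 CPM per kb in WT skin libraries, and neighbours among these 3 overlapped in both genotypes. Relb was at 59.4 ± 4.45 CPM per kb in T166A and 70.3 ± 3.33 in WT libraries, and Rel was lowest at 21.2 ± 1.56 in T166A and 27.1 ± 0.746 in WT libraries.

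In BMDM the order was led by Nfkbia, at 51.9 ± 10.6 CPM per kb in T166A and 60.6 ± 8.22 in WT libraries (SD, n = 3 each), with the subunit genes Nfkb2, Nfkb1 and Relb next. Tnfaip3 and Tnf were near the bottom, at 5.06 ± 2.02 and 4.03 ± 0.915 CPM per kb in T166A and at 5.23 ± 0.934 and 5.74 ± 0.391 in WT BMDM, where these neighbours overlapped. Rel was the lowest in both genotypes.

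All 10 genes were higher in the skin fraction than in BMDM, with every skin library above every BMDM library of its genotype. Tnfaip3 was 87.3-fold higher in T166A and 109-fold higher in WT mice, and Tnf 59-fold and 79.3-fold, so the ligand and A20 showed the widest gap. Nfkbia was 18.1-fold higher in T166A and 16.6-fold in WT mice, and Traf1 20.1-fold and 16.1-fold. Nfkbiz was 12.8-fold higher in T166A and 18.4-fold in WT mice, and Nfkb1 10.3-fold and 13.1-fold. Relb had the narrowest gap, 2.8-fold in T166A and 3.22-fold in WT mice. Wound tissue, other cells in the fraction and the enzymatic digestion of skin cannot be told apart in this contrast, the tables were normalized separately, and the folds were not tested.

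**Figure D4:**
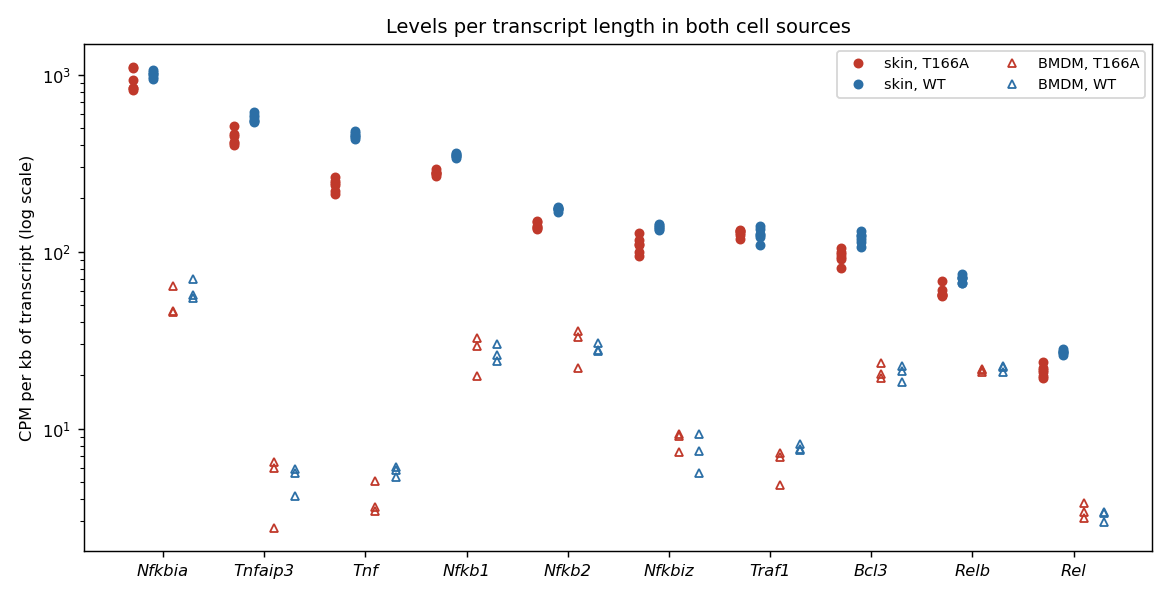
CPM per kb of transcript (vertical axis, log scale) of the 10 genes in each library, ordered by their WT skin level: skin T166A (filled red), skin WT (filled blue), BMDM T166A (open red) and BMDM WT (open blue). Every skin library lies above every BMDM library of the same gene, most widely for Tnfaip3 and Tnf, and least for Relb.

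Within a genotype the members did not move as a block. Over the 12 skin libraries, with log2 CPM centred within each genotype, the 45 pairs of members had a median Pearson r of 0.29, from -0.54 to 0.81, as a description with libraries that share depth and scaling. Nfkbia and Nfkbiz had r = 0.81, and Relb and Bcl3 had r = 0.80. Rel and Bcl3 had r = -0.54, and Nfkb1 and Rel r = -0.51. Tnf had r from -0.31 (Nfkb1) to 0.44 (Rel) with the other members.

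**Figure D5:**
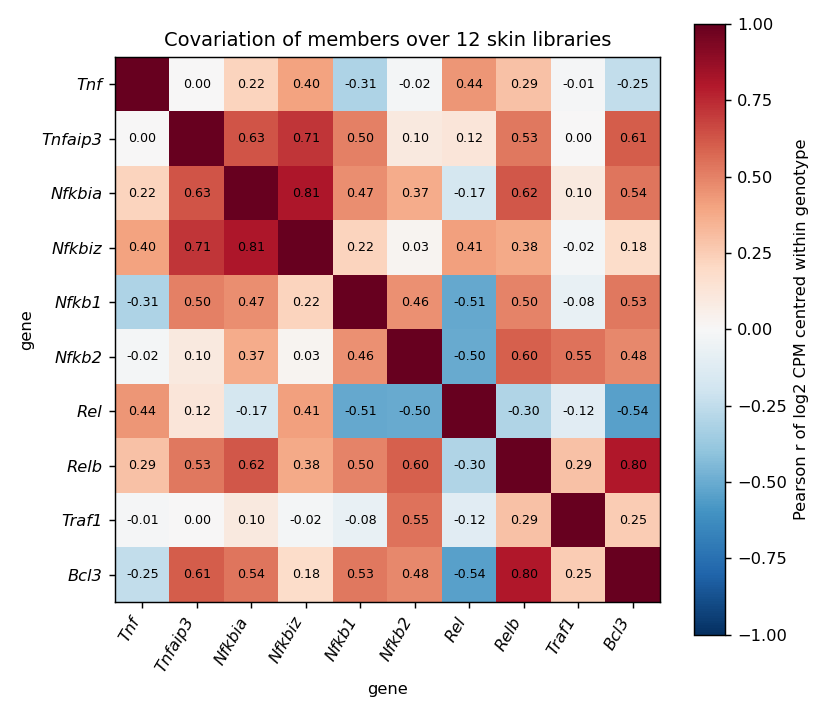
Pearson r between members (both axes) of log2 CPM centred within genotype over the 12 skin libraries, from -1 (blue) to 1 (red). Nfkbia, Nfkbiz and Tnfaip3 are alike in their variation, as are Relb and Bcl3 at 0.80, whereas Rel is negative with several subunits and Tnf ranges from -0.31 to 0.44.

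The genes whose variation among libraries was most like that of Tnf, of 10217 with a mean of at least 5 CPM, were not members. They included Tgfa (r = 0.91), which encodes an epidermal growth factor receptor ligand, Aimp2 (0.89), a scaffold of tRNA synthetases, the decoy receptor gene Tnfrsf22 (0.87) and the helicase gene Dhx32 (0.86), over 12 libraries each. None of these 4 had a lower mean in T166A skin libraries, and Tgfa was at 15.8 ± 2.76 CPM in T166A and 10.8 ± 1.84 CPM in WT skin libraries (SD, n = 6 each), a log2 fold change of 0.55. Within T166A libraries r with Tnf was 0.89 to 0.99 for these 4 genes, and within WT libraries 0.55 to 0.96. Their r values were picked as the highest among 10217 genes and were not tested. Rel ranked 1044 of 10217 by this measure.

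The TNF superfamily genes beside Tnf on chromosome 17 were barely expressed. Lta, which encodes lymphotoxin alpha, had 0 to 10 counts per library in T166A BMDM, 1 to 6 in WT BMDM, 2 to 16 in T166A skin and 1 to 15 in WT skin, and was not tested. Ltb, which encodes lymphotoxin beta, was at 0.69 ± 0.195 CPM in T166A and 0.82 ± 0.244 CPM in WT skin libraries (SD, n = 6 each), with overlap. Of the other TNF superfamily ligands, 12 of 16 were tested in skin, with 1 higher and 3 lower. Tnfsf14, which encodes the ligand LIGHT, was at 123 ± 8.25 CPM in T166A and 181 ± 22.7 CPM in WT libraries (log2 fold change -0.56, edgeR adjusted p = 9.91e-06). Tnfsf12, which encodes TWEAK, fell by 0.37 on the log2 scale (edgeR adjusted p = 7.79e-05).

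The rest of the pathway in skin was read from fixed lists, which were drawn up with earlier results of these data known, against 12.7% of all genes called higher and 13.2% called lower. Of 17 core subunits, inhibitors and kinases, 2 were higher and 5 lower, with a list median log2 fold change of 0. Nfkbid, which encodes a nuclear inhibitor of the Bcl3 and Nfkbiz type, was at 87.4 ± 7.95 CPM in T166A and 149 ± 4.41 CPM in WT libraries (SD, n = 6 each; log2 fold change -0.77, edgeR adjusted p = 2.25e-09). Nfkbib, a second cytoplasmic inhibitor, fell by 0.31 on the log2 scale (edgeR adjusted p = 9.17e-05). Of 14 TNF receptor and receptor-complex genes, 1 was higher, the ubiquitin ligase gene Birc2 at 49.2 ± 5.17 CPM in T166A and 32.5 ± 2.56 CPM in WT libraries (edgeR adjusted p = 1.92e-06). In this group 8 were lower, among them Rhbdf2, whose product carries the TNF-releasing protease to the cell surface, at 324 ± 19.7 CPM in T166A and 377 ± 12.5 CPM in WT libraries (edgeR adjusted p = 0.00174).

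Of 9 adaptors of Toll-like and interleukin 1 receptors, 1 was higher and 5 were lower, with Pik3ap1 at 395 ± 17.9 CPM in T166A and 511 ± 26.8 CPM in WT libraries and Ticam1, the adaptor TRIF, at 61.1 ± 3.18 CPM in T166A and 76.4 ± 4.66 CPM in WT libraries (SD, n = 6 each). The edgeR adjusted p-values were 6.65e-06 for Pik3ap1 and 0.000124 for Ticam1. Of 14 further feedback genes 3 were higher and 2 lower, with a median of 0.02. They went both ways: Zc3h12a, an RNase that degrades cytokine mRNAs, fell by 0.47 (edgeR adjusted p = 7.69e-06), and Tnip1, an A20-binding inhibitor, was higher by 0.24 on the log2 scale (edgeR adjusted p = 0.00269). Of 12 regulators of Tnf mRNA stability and translation, 2 were higher and 4 lower. Zfp36, which encodes tristetraprolin, the protein that binds the Tnf AU-rich element and shortens the mRNA's life, was at 1542 ± 191 CPM in T166A and 2200 ± 126 CPM in WT libraries (log2 fold change -0.51, edgeR adjusted p = 7.7e-06). Its relative Zfp36l2 fell by 0.29 on the log2 scale (edgeR adjusted p = 0.000258).

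Of 36 other NF-kB targets, 6 were higher and 16 lower, with a median log2 fold change of -0.17. Bcl2l1, which encodes the survival protein Bcl-xL, was at 39.3 ± 4.46 CPM in T166A and 65.4 ± 5.45 CPM in WT libraries (edgeR adjusted p = 1.53e-07), and the receptor gene Tlr2 at 396 ± 27.3 CPM in T166A and 577 ± 42.5 CPM in WT libraries (edgeR adjusted p = 3.47e-07). Of 15 genes of stimulus kinases, Dusp phosphatases, AP-1 factors and other stimulus-induced factors, 0 were higher and 12 lower, with a median of -0.40. Dusp5 was at 316 ± 26.4 CPM in T166A and 472 ± 14.6 CPM in WT libraries, and Atf3 at 405 ± 17.7 CPM in T166A and 592 ± 57.7 CPM in WT libraries (SD, n = 6 each; edgeR adjusted p = 5.83e-08 and 5.45e-07). Of all 129 list genes tested, 16 were higher and 55 lower. With the macrophage score as a covariate 6 were higher and 10 lower, beside 321 higher and 393 lower of all 15473 genes. With the adipocyte score 1 was higher and 25 lower, beside 204 higher and 396 lower of all genes.

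In BMDM DESeq2 called 7 of 122 list genes and limma-voom 1, beside 400 and 13 of all 13139 genes tested. By edgeR 0 list genes passed, beside 0.0685% of all genes. At an unadjusted p under 0.05 by edgeR there were 23 list genes, beside 12.8% of all genes. Ccl2, the gene of a monocyte-attracting chemokine and NF-kB target, came nearest, at 11.4 ± 1.63 CPM in T166A and 27.6 ± 2.26 CPM in WT BMDM (SD, n = 3 each; log2 fold change -1.28, edgeR adjusted p = 0.0556). Plaur, the urokinase receptor gene, was at 34.7 ± 6.29 CPM in T166A and 61.7 ± 13.6 CPM in WT BMDM (edgeR adjusted p = 0.129). Tab3, of the kinase complex above the inhibitors' kinase, was at 6.08 ± 0.436 CPM in T166A and 2.83 ± 0.583 CPM in WT BMDM (edgeR adjusted p = 0.182), and Traf5 at 10 ± 1.34 CPM in T166A and 16.2 ± 0.863 CPM in WT BMDM (edgeR adjusted p = 0.193). The groups of these 4 genes did not overlap. The other genes named by the rule in BMDM were Tab2, Cflar, Pik3ap1, Traf6, Tnip3, Itch, Rc3h1, Tia1, Tnfsf10, Tnfsf9, Egr2 and Atf3, with edgeR adjusted p-values from 0.139 to 0.494. Some NF-kB targets had a single high library among the 3 WT BMDM libraries, with the others far below it. Cxcl2 spanned 2.69 to 79.9 CPM there, Saa3 1.57 to 124, Ptgs2 0.238 to 70.6 and Nos2 0 to 49.3 CPM. In T166A BMDM these genes spanned 2.39 to 3.04, 1.1 to 1.91, 0 to 5.06 and 0 to 0.406 CPM in that order. Their edgeR adjusted p-values were 0.485 to 0.682. Of 32 other NF-kB targets tested in BMDM, 9 had a positive and 23 a negative log2 fold change. The 23 include Cxcl2, Saa3, Ptgs2 and Nos2, each with a single high WT library. The list median was -0.15, beside -0.02 over all genes tested. Signs over all genes were not counted, so nothing is read from this split.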

How the data were processed

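Whole-number raw counts per RefSeq transcript were deposited by the authors, BMDM and skin apart. Per the submitters' processing notes, the tools were HISAT2 2.2.1, featureCounts, cutadapt 4.4 and FastQC 0.12.1, with mm10. For strandedness and multiply mapped reads the settings are not given in the sources used. Nfkb2 (Psd and a predicted gene) and Bcl3 (a predicted gene) share exon positions with genes on the other strand, so their counts could hold reads of these. One transcript row, that with the highest CPM in sum, stood for each gene, and 117 unmatched transcripts per table (0.514% of counts in BMDM, 0.187% in skin) were left out.

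Genotypes were compared in R 4.3.3 with edgeR 4.0.16 (TMM, filterByExpr at 10 counts and 15 in total, robust quasi-likelihood F test, Benjamini-Hochberg adjustment over all genes tested, threshold 0.05). The model held genotype in skin, and in BMDM also batch. The procedure was first tested on simulated data. Alternatives were RLE factors, other filters, DESeq2 1.42.0, limma 3.58.1 (voom), sums over transcripts, removal of length trends, a replicate block, batch settings, scores of cell types as covariates and the omission of each library.

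The members and lists were chosen with earlier results of these data known. Besides the members, genes were named by rule: Lta, Ltb, the 2 genes of each list with the smallest edgeR p in each source, the 5 genes most like Tnf (1 of them is not reported here), and the most abundant marker of each cell type list. Hcar2, and in BMDM Cxcl2, Saa3, Ptgs2 and Nos2, were named after their values were seen. Same-numbered T166A and WT libraries deviated together in BMDM (r = 0.200, 0.115 and 0.185), where the labels also give the batch, and not in skin (-0.045 to 0.090). Within a source and genotype, no pair of libraries was a duplicate. Promoters and positions are from RefSeq (GRCm38.p6) and untranslated regions from GENCODE.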

Additional observations from a re-analysis of the deposited data

Results flagged for a closer look

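Of 20 groups of 6 skin libraries looked at, a genotype for each member, 2 held a library far from the others, and chance flags about 1 in 20 groups. Relb was at 150 CPM in T166A replicate 5, above the other T166A libraries, which spanned 125 to 133 CPM. Nfkb2 was at 527 CPM in WT replicate 3, below the other WT libraries, which spanned 549 to 560 CPM.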

How the results depend on the processing

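In skin, 8 members were called lower in every alternative but 2, 2 members with the adipocyte score and 5 with the macrophage score. The macrophage score and unscaled library totals were chosen after seeing the data. The adipocyte and macrophage scores gave 600 and 714 genes and 26 and 16 list genes called, against 4011 and 71. Leaving out a library gave 3473 to 4179 genes, 8 members and 62 to 75 list genes. Tnf kept its sign in 24 of 24 alternatives, from -1.11 to -0.85. This contrast chose the genes, so nothing is read from the member calls in skin or from this sign. Nfkbia reached 0.05 with the neutrophil score and Traf1 -0.02 without one library. Larger moves came with the adipocyte score, Nfkbia to -0.39, Bcl3 to -0.62 and Traf1 to 0.32. With the macrophage score Bcl3 was at -0.08.

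In BMDM, 0 members were called in 17 alternatives. Genes called, 9 in the main setting, were 105 without a filter, 400 by DESeq2, 0 with sums over transcripts, 19 with length trends removed, 0 without a batch term, 21 in B1 alone and 0 to 18 without a library. List genes called, 0 in the main setting, were 1 with RLE factors, 3 without a filter, 1 at 1 CPM, 7 by DESeq2, 1 by limma-voom and 0 to 1 without a library. The log2 fold change of Tnf ran from -0.76 to -0.38 (adjusted p 0.177 to 0.83). The causes were not tested.

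With a replicate block, which treats same-numbered libraries as pairs, edgeR called 10 genes, 0 members and 0 list genes in BMDM. No label states such pairs, and in BMDM the number also follows the batch. In skin, where the libraries share only a number, it called 4549 genes, 8 members and 79 list genes. Tnf in BMDM was no longer under an unadjusted p of 0.05, and the adjusted call of no member changed.

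With 3 libraries per genotype and a biological coefficient of variation of 0.279, against 0.133 in skin, the BMDM intervals of 6 members, Tnf, Tnfaip3, Nfkbia, Nfkb1, Relb and Traf1, hold their skin values.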
